A study of Mus musculus with 16 samples.

Results

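Lipid droplet coat and lipolysis genes were followed here in the liver: 10 genes, picked by name from the 55487 genes of the deposited table. They are the perilipins Plin2, Plin3, Plin4 and Plin5, the CIDE family genes Cidea, Cideb and Cidec, the lipase gene Pnpla2, and the genes of its inhibitors, G0s2 and Hilpda. Each matched 1 Ensembl identifier, and 9 of the 10 passed the filter on low counts that left 14553 genes for testing. Cidea did not pass. Whole liver of wild-type C57BL/6J mice aged 12 weeks was sequenced, with 4 libraries for each of 4 treatments: room air, sustained hypoxia, intermittent hypoxia, and what the labels call overlap hypoxia. Per the series title, the last combines the intermittent and the sustained exposure. The labels give no oxygen level, exposure length, sex or feeding state, and nothing in them says whether libraries were pooled from several mice.

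A lipid droplet is a core of triglyceride and cholesteryl ester under a single layer of phospholipid, and the proteins on that layer decide how fast the fat is released. Perilipins coat the droplet and limit the access of lipases, CIDE proteins enlarge droplets by passing lipid from one to another, and ATGL, the product of Pnpla2, makes the first cut into triglyceride. G0S2 and HILPDA bind ATGL and inhibit it. In hepatocytes Plin2 is the main coat gene, and PLIN2 protein is known to be degraded when droplets are few; Plin2, Plin5, Cidec, G0s2 and Hilpda are known targets of PPAR nuclear receptors, and Plin2 and Hilpda are also known to respond to hypoxia-inducible factors.

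Total expected counts ranged from 10940275 to 64789635 per library, the lowest in overlap replicate 3. Hepatocyte markers (Alb, Ttr, Apoa1, Serpina1c, Fga and Cps1) summed to between 55913 and 87479 CPM (counts relative to the library's scaled total) in all 16 libraries, which matters because 1 sentence of the protocol text names retina while the tissue label is liver. Ribosomal RNA took 5.22% ± 3.71 of the counts of room air libraries and 25.2% ± 7.0 of those of intermittent libraries (SD, n = 4 each); the sustained and overlap shares were 2.16% ± 0.698 and 9.59% ± 5.82. Adipocyte RNA stood out in sustained replicate 2, with 324 counts of Adipoq and 75 of Plin1 against at most 4 and 2 in any other library. Its summed adipocyte marker level was 72.5 CPM, the top of a group range that began at 13.7; the ranges were 14.5 to 19.3 CPM in room air, 17.7 to 27.0 in intermittent and 8.90 to 26.6 in overlap hypoxia. Lep was at 0 in 15 of 16 libraries. Fold changes of the tested droplet genes in sustained hypoxia against room air are therefore given with and without that library. Shares, ratios, marker levels and the counts of the other gene lists include it. In whole tissue, fewer cells of a type and less RNA per cell cannot be told apart.

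The promoters of 5 genes on which the results turn are shown first, as RefSeq gives them on GRCm38.p6: 250 bases before to 50 after the transcription start, on the gene's own strand. Capitals mark the core of a hypoxia-inducible factor site, ACGTG or GCGTG, and the nuclear receptor half-site AGGTCA, on either strand. Plin2 and Hilpda are shown as the genes known for both kinds of control, Plin5 and G0s2 as PPAR targets that fell with Plin2, and Pnpla2 as the gene that moved the other way.
Plin2, chr4:86670010-86670309, minus strand: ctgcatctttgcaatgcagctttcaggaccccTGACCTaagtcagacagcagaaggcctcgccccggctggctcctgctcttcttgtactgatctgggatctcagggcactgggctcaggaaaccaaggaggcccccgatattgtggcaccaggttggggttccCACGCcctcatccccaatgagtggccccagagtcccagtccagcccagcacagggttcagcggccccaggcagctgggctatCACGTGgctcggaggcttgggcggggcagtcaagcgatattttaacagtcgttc
Hilpda, second window, chr6:29272376-29272675, plus strand: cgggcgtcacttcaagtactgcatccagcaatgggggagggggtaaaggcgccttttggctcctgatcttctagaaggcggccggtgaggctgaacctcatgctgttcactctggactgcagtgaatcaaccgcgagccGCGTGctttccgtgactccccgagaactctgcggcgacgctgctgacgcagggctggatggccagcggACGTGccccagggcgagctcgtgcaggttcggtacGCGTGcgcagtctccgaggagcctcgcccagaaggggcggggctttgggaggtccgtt
Plin5, first window, chr17:56117499-56117798, minus strand: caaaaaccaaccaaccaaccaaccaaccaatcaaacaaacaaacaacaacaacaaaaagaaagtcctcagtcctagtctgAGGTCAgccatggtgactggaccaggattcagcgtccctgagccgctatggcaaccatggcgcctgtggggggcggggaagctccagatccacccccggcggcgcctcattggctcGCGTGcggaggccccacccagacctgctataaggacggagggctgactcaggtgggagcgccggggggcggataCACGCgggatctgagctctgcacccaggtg
G0s2, chr1:193273139-193273438, minus strand: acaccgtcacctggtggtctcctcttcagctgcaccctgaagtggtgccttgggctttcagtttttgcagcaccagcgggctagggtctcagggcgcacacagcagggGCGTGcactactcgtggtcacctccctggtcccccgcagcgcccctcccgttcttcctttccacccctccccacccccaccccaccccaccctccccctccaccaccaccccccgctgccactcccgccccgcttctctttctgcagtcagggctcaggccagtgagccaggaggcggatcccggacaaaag
Pnpla2, chr7:141454938-141455237, plus strand: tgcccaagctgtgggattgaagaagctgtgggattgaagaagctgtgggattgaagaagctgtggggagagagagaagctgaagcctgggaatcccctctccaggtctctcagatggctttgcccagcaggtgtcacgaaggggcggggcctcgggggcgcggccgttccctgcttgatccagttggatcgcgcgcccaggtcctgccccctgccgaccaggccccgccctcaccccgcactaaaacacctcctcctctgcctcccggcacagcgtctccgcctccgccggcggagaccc

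In the Plin2 window the run CACGTG, an E-box that contains ACGTG read on both strands, begins 4 bases before the start (position −4, with the first transcribed base as 1). A reverse-strand AGGTCA begins at −218 and a reverse-strand GCGTG at −86. The Hilpda window holds ACGTG at −43 and GCGTG at −111 and −8. The Plin5 window holds AGGTCA at −170 and GCGTG at −54 and, on the reverse strand, at 21, and the G0s2 window GCGTG at −142. Neither core of the hypoxia-inducible factor site nor the half-site was found in the Pnpla2, Plin3 or Plin4 windows. Of the windows not shown, that of Cideb held a reverse-strand GCGTG at 8, and those of Cidec GCGTG at 10 (reverse strand) and −79. The first Hilpda window held GCGTG at 28. The second Plin5 window held a reverse-strand GCGTG at −230 and AGGTCA at 14. These are short runs: of 32851 windows in the RefSeq table, 19.62% hold ACGTG, 32.39% GCGTG, 7.15% CACGTG and 16.26% AGGTCA. The windows of 9 of the 10 genes were read. A match is a run of letters and not a measured binding site.

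Which droplet genes are abundant in these livers was read from CPM per kilobase of exon, the scale on which genes can be compared. In room air G0s2 stood at 202 ± 109 and Plin2 at 125 ± 27.0 CPM per kilobase (SD, n = 4), with overlapping ranges. Cideb followed at 62.6 ± 17.4, below every Plin2 library. Plin5 (19.0), Pnpla2 (9.31) and Plin3 (8.78) formed the middle of the order, each overlapping the next. Cidec (2.18) and Hilpda (1.96) overlapped each other, and Plin4 (0.316) and Cidea (0.175) were lowest. Under each kind of hypoxia Cideb joined the top of the order, though Cideb itself was not called in any comparison. Its place in every group is uncertain, as 76.34% of its exon bases are shared with Nop9 on the opposite strand. Cideb, G0s2 and Plin2 stood at 76.8, 68.2 and 60.4 CPM per kilobase in sustained hypoxia and at 80.2, 66.4 and 44.3 in intermittent hypoxia. In both, G0s2 overlapped the other genes of the trio, and every Cideb library was above every Plin2 library. In overlap hypoxia the values were 69.7, 84.3 and 51.5, and all 3 genes overlapped.

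**Figure D1:**
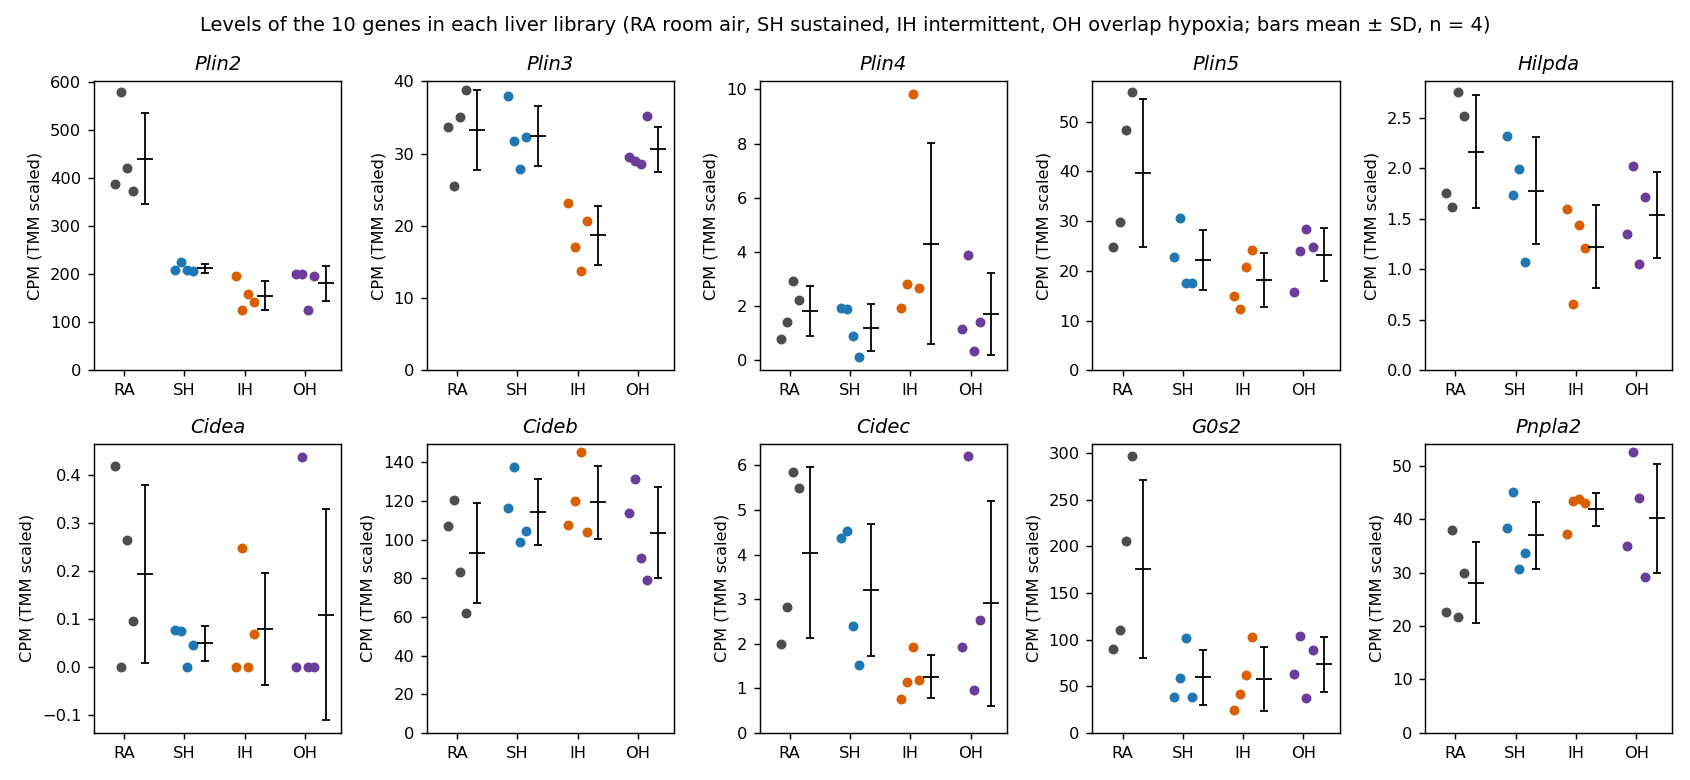
Level in CPM (vertical axis, a separate linear scale for each gene) of the 10 genes in every library of the 4 groups; points are libraries, and bars are means with SD (n = 4). All 12 Plin2 libraries under hypoxia, at most 226 CPM, lie below the 4 room air libraries, at least 373 CPM.

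Plin2 encodes the coat protein of most hepatocyte droplets and lies on chromosome 4 (86648386 to 86670060, minus strand, GRCm38; ENSMUSG00000028494). It stood at 388, 579, 421 and 373 CPM in the 4 room air libraries. In sustained hypoxia the values were 209, 226, 208 and 206 CPM, in intermittent hypoxia 197, 125, 159 and 141 CPM, and in overlap hypoxia 200, 201, 126 and 197 CPM. Every hypoxic library was below every room air library, which in this direction held for 4.32% of all genes tested in sustained and 7.14% in overlap hypoxia. Plin2 was the 1 gene among the 9 that fell in all 3 exposures. It was 2.07-fold lower in sustained (log2 −1.05, SE 0.17, edgeR adjusted p = 0.0277), 2.83-fold lower in intermittent (log2 −1.50, SE 0.18, adjusted p = 8.5e-06) and 2.43-fold lower in overlap hypoxia (log2 −1.28, SE 0.17, adjusted p = 0.000898). These 3 comparisons share their room air libraries. The adjusted p values are from edgeR's quasi-likelihood test with Benjamini-Hochberg adjustment over all 14553 genes, with 0.05 as the threshold for "fell" and "rose" throughout.

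Among the hypoxic groups, Plin2 was 1.36-fold higher in sustained than in intermittent hypoxia (log2 0.45, SE 0.17, edgeR adjusted p = 0.0450). The libraries did not overlap, as for 18.0% of all genes tested in that direction. Overlap hypoxia differed from neither single exposure at the threshold (log2 −0.23 against sustained, 95% interval −0.59 to 0.13; log2 0.22 against intermittent, −0.14 to 0.58). The sum of both single-exposure changes would have been lower than what overlap hypoxia showed: the departure from additivity was log2 1.27 (SE 0.24, edgeR adjusted p = 0.0373). Across the 16 libraries, the tested genes whose log2 CPM ran most like that of Plin2 were Hacl1 (Pearson r = 0.915), Morf4l2 (0.914), Memo1 (0.895), Tmem37 (0.881) and Atp6ap1 (0.874). These correlations include the differences between groups and are a description. Hacl1 encodes a lyase of peroxisomal fatty acid alpha-oxidation.

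On leaving out libraries, the sustained call was the least firm of the 3. Without sustained replicate 2, the library with adipocyte RNA, Plin2 stood at log2 −1.08 with an edgeR adjusted p of 0.110. It also missed the threshold without room air replicate 2 (log2 −0.89, adjusted p = 0.106) or 3 (0.0615), sustained replicate 1 (0.0631) or 3 (0.0759), or intermittent replicate 3 (0.0572). The departure from additivity was likewise not called without room air replicate 2 (log2 1.12, edgeR adjusted p = 0.0578) or 3 (0.0934), sustained replicate 1 (0.0677), 2 (0.101) or 3 (0.0539), intermittent replicate 2 (0.0821) or 3 (0.083), or overlap replicate 4 (0.10). The overlap call was kept whichever library was left out, with log2 between −1.35 and −1.13; without the shallow overlap replicate 3 it was −1.15.

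Plin3 encodes the widely expressed perilipin that also sits free in the cytosol (chromosome 17, 56277476 to 56292873, minus strand; ENSMUSG00000024197). Its levels were 33.6, 25.5, 35.0 and 38.7 CPM in room air and 38.0, 31.7, 27.8 and 32.3 CPM in sustained hypoxia. They were 23.1, 17.1, 13.7 and 20.7 CPM in intermittent and 29.5, 29.0, 28.6 and 35.3 CPM in overlap hypoxia. The intermittent libraries were the low ones and overlapped none of the other groups. Of all genes tested, 18.0% were so separated from room air, 18.0% from sustained and 5.52% from overlap hypoxia, each with intermittent hypoxia lower. Plin3 was 1.78-fold lower in intermittent hypoxia than in room air (log2 −0.83, SE 0.16, edgeR adjusted p = 0.000529). Sustained hypoxia (log2 −0.03, 95% interval −0.36 to 0.30) and overlap hypoxia (log2 −0.12, −0.45 to 0.21) did not differ from room air at the threshold. Plin3 was the 1 gene of the 9 that differed between overlap and intermittent hypoxia, 1.64-fold higher in overlap (log2 0.71, SE 0.16, edgeR adjusted p = 0.0204); of all genes tested 6.15% passed there, 3.20% higher. That call was lost without intermittent replicate 2 (adjusted p = 0.0712) or 3 (0.0716), or overlap replicate 4 (0.0867). Plin3 was also higher in sustained than in intermittent hypoxia (log2 0.80, SE 0.16, adjusted p = 0.000746).

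Plin5 encodes the perilipin that ties droplets to mitochondria in oxidative tissues (chromosome 17, 56111601 to 56117596, minus strand; ENSMUSG00000011305). Room air libraries held 24.8, 29.7, 48.4 and 56.0 CPM, and sustained libraries 22.9, 30.6, 17.6 and 17.6 CPM. Intermittent libraries held 14.9, 12.4, 20.7 and 24.3 CPM, all under the lowest room air value, and overlap libraries 15.7, 24.0, 28.4 and 24.9 CPM. Of all genes tested, 18.0% had every intermittent library below every room air library. Plin5 fell 2.20-fold in intermittent hypoxia (log2 −1.13, SE 0.28, edgeR adjusted p = 0.0053). It stood at log2 −0.84 in sustained (95% interval −1.43 to −0.24, adjusted p = 0.268) and −0.78 in overlap hypoxia (−1.38 to −0.18, adjusted p = 0.111), neither of which was called. Without room air replicate 1 the overlap value was log2 −0.95 (edgeR adjusted p = 0.0457).

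Plin4, a perilipin mostly of fat and muscle, lies beside Plin5 on chromosome 17 (56100591 to 56109803, minus strand; ENSMUSG00000002831) and was scarce. Its levels were 0.803, 1.39, 2.91 and 2.21 CPM in room air, 1.91, 1.89, 0.913 and 0.117 CPM in sustained, 1.92, 2.83, 9.83 and 2.65 CPM in intermittent, and 1.17, 3.87, 0.349 and 1.41 CPM in overlap hypoxia. No comparison of Plin4 was called. The value against room air was log2 1.21 in intermittent hypoxia (95% interval −0.42 to 2.85, edgeR adjusted p = 0.232) and 0.43 without intermittent replicate 3, the highest library.

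Within each library, Plin2 supplied most of the summed Plin2 to Plin5 level per kilobase: 81.3% ± 6.42 in room air, against 75.8% ± 2.74 under sustained, 75.3% ± 4.54 under intermittent and 72.0% ± 6.65 under overlap hypoxia (SD, n = 4). The Plin3 share was 5.89% ± 1.58 in room air against 10.8% ± 1.34, 8.48% ± 1.70 and 11.5% ± 1.44. The sustained and overlap libraries, from 9.56% and 9.94% upward, lay above the highest room air library at 7.12%. These shares need no scaling between libraries and were not tested.

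Among the CIDE genes, Cidec encodes the protein that drives droplet growth in fat and in fatty liver (chromosome 6, 113424634 to 113435760, minus strand; ENSMUSG00000030278). It was low in these livers, at 1.99, 2.82, 5.84 and 5.5 CPM in room air and 4.37, 4.52, 2.40 and 1.52 CPM in sustained hypoxia. Intermittent libraries held 0.760, 1.15, 1.92 and 1.19 CPM and overlap libraries 1.92, 6.20, 0.959 and 2.53 CPM. All 4 intermittent libraries were below all 4 room air libraries, by a narrow gap, while overlap libraries ran across both ranges. That separation from room air held for 18.0% of all genes tested. Cidec fell 3.27-fold in intermittent hypoxia (log2 −1.71, SE 0.52, edgeR adjusted p = 0.0181), a call that was lost without room air replicate 3 (adjusted p = 0.0520), intermittent replicate 1 (0.0532) or 2 (0.0514). It was 2.61-fold higher in sustained than in intermittent hypoxia (log2 1.38, SE 0.52, adjusted p = 0.0465), and without the sustained library that holds adipocyte RNA that was log2 1.18 (adjusted p = 0.114). That library's Cidec was 4.52 CPM, against 4.37, 2.40 and 1.52 CPM in the other sustained libraries. The part of adipocyte RNA in the Cidec level was not tested.

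Cideb, the CIDE gene typical of hepatocytes and known for its part in VLDL lipidation, did not pass the threshold in any of the 7 comparisons. Its levels were 107, 121, 83.1 and 62.2 CPM in room air, 116, 138, 98.6 and 104.5 CPM in sustained, 108, 120.0, 145 and 104.1 CPM in intermittent and 114, 131, 90.2 and 79.3 CPM in overlap hypoxia. The groups overlapped throughout, and the value in intermittent hypoxia was log2 0.36 (95% interval −0.04 to 0.75, edgeR adjusted p = 0.152). With offsets for gene length that value was log2 0.61 (edgeR adjusted p = 0.0217). Cideb (chromosome 14, 55754050 to 55758458, minus strand; ENSMUSG00000022219) shares 76.34% of its exon bases with Nop9 on the opposite strand. No source used here states the strand setting of the counts, so reads of Cideb and Nop9 cannot be told apart and its level is uncertain.

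Cidea, the CIDE gene of brown fat (chromosome 18, 67343604 to 67367785, plus strand; ENSMUSG00000024526), was close to the detection limit. It held 20, 0, 14 and 4 counts in room air, 5, 6, 0 and 2 in sustained, 0, 8, 0 and 4 in intermittent and 0, 18, 0 and 0 in overlap hypoxia. In the 7 libraries at 0, 3 counts correspond to 0.0501 to 0.262 CPM, which is the upper limit that a count of 0 allows there, for counting error only. No fold or test is given for it.

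Pnpla2 encodes ATGL, the lipase that starts triglyceride breakdown (chromosome 7, 141455198 to 141460743, plus strand; ENSMUSG00000025509), and was the 1 gene of the 9 that rose. It stood at 22.6, 38.0, 21.7 and 30.0 CPM in room air and 38.4, 45.0, 30.7 and 33.7 CPM in sustained hypoxia. Intermittent libraries held 37.2, 43.3, 43.7 and 43.1 CPM and overlap libraries 35.1, 52.5, 44.0 and 29.2 CPM. The intermittent libraries clustered tightly and overlapped room air through room air replicate 2. Pnpla2 was 1.49-fold higher in intermittent hypoxia (log2 0.57, SE 0.19, edgeR adjusted p = 0.0207). Without room air replicate 1 (log2 0.47, adjusted p = 0.0684) or 3 (0.46, 0.0804) it was not called. It stood at log2 0.40 in sustained (95% interval 0.01 to 0.78, adjusted p = 0.421) and 0.51 in overlap hypoxia (0.12 to 0.90, adjusted p = 0.104). Without room air replicate 2 the overlap value was 0.69 (edgeR adjusted p = 0.0457).

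G0s2 encodes a small protein that binds and blocks ATGL (chromosome 1, 193272161 to 193273217, minus strand; ENSMUSG00000009633). Room air libraries held 90.4, 110.0, 206 and 296 CPM, and sustained libraries 38.4, 59.3, 102 and 38.3 CPM. Intermittent libraries held 24.7, 41.2, 62.2 and 103 CPM and overlap libraries 63.6, 103, 37.3 and 89.3 CPM. Libraries varied widely inside every group, and 1 library of each hypoxic group lay within the room air range. G0s2 fell 3.03-fold in intermittent hypoxia (log2 −1.60, SE 0.53, edgeR adjusted p = 0.0306). The change was log2 −1.56 in sustained hypoxia (95% interval −2.71 to −0.42, adjusted p = 0.288) and −1.25 in overlap hypoxia (−2.39 to −0.12, adjusted p = 0.174), and neither was called. The intermittent call was lost without room air replicate 3 (adjusted p = 0.0663) or 4 (0.101), or intermittent replicate 1 (0.0694), 2 (0.0833) or 3 (0.0570).

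Hilpda encodes the other ATGL inhibitor and is widely used as a hypoxia-responsive gene (chromosome 6, 29272488 to 29275446, plus strand; ENSMUSG00000043421). Its levels were 1.76, 1.62, 2.76 and 2.52 CPM in room air and 2.32, 1.74, 2.0 and 1.07 CPM in sustained hypoxia. Intermittent libraries held 1.6, 0.653, 1.44 and 1.21 CPM and overlap libraries 1.35, 2.02, 1.05 and 1.72 CPM. No exposure had Hilpda called higher. The intermittent libraries all lay just under the lowest room air library, a separation found for 18.0% of all genes tested. Hilpda was called lower in 1 exposure. It was 1.77-fold lower in intermittent hypoxia (log2 −0.82, SE 0.32, edgeR adjusted p = 0.0469), the call nearest the threshold, and was lost on leaving out any 1 of room air 3 and 4, sustained 1, 2 and 3, intermittent 2, 3 and 4, and overlap 1 and 4, with adjusted p up to 0.155. With offsets for gene length the intermittent value was log2 −0.57 (edgeR adjusted p = 0.160) and was not called. Over 14540 genes, exon length and log2 change had a Spearman correlation of 0.257 in intermittent and 0.208 in overlap hypoxia. Shorter genes thus tended to stand lower, and Hilpda has 1103 exon bases. Hilpda stood at log2 −0.28 in sustained (95% interval −0.92 to 0.36) and −0.47 in overlap hypoxia (−1.12 to 0.19).

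The balance between inhibitor and lipase was read inside each library as the log2 ratio of G0s2 to Pnpla2 CPM, which does not depend on scaling between libraries. Room air libraries averaged 2.52 ± 0.89 (range 1.53 to 3.30). Sustained libraries averaged 0.58 ± 0.78 (up to 1.73), intermittent libraries 0.28 ± 0.79 (−0.59 to 1.26) and overlap libraries 0.80 ± 0.77 (−0.24 to 1.61; SD, n = 4 each). All 4 intermittent libraries were below all 4 room air libraries, while 1 or more libraries of the other exposures reached into the room air range. The log2 ratio of Plin2 to Plin3 averaged 3.72 ± 0.54 in room air, and 2.72 ± 0.20, 3.07 ± 0.34 and 2.54 ± 0.30 under sustained, intermittent and overlap hypoxia, with every sustained and every overlap library below every room air library. These ratios follow from gene values already described and are given without a test.

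**Figure D2:**
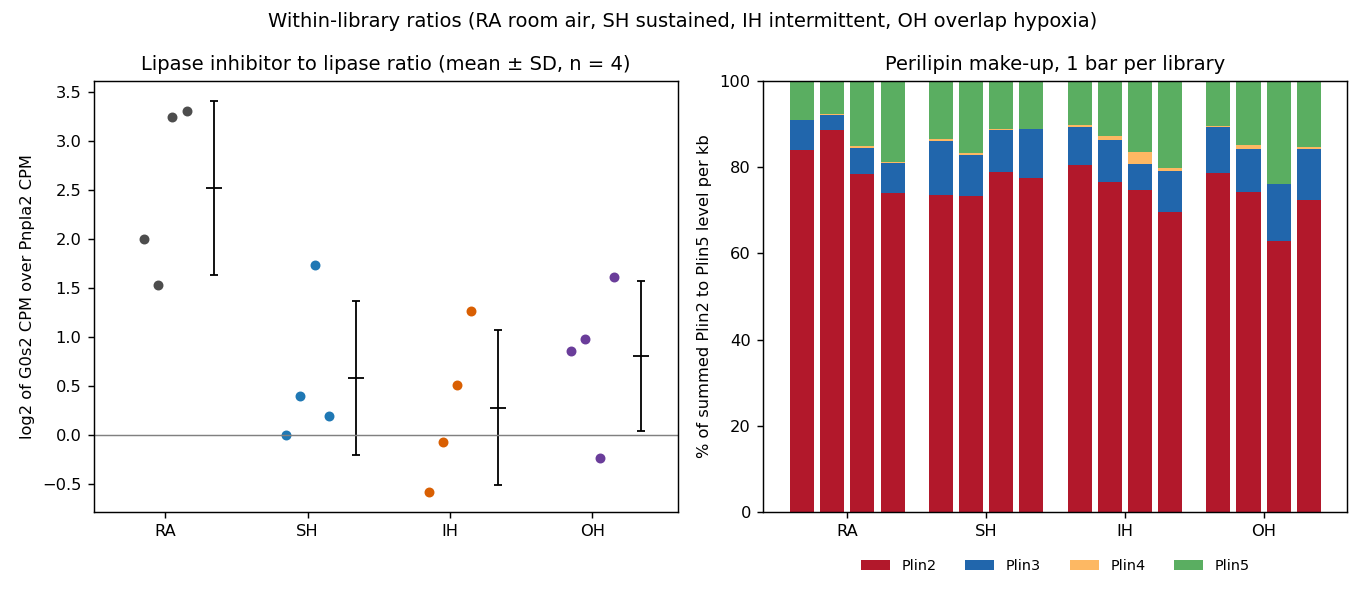
Left, log2 ratio of G0s2 to Pnpla2 CPM in each library, with the mean and SD of each group (n = 4). Right, share of the summed Plin2 to Plin5 level per kilobase from each perilipin, in percent, with 1 bar per library. The 4 intermittent libraries, from −0.59 to 1.26, lie below the room air libraries, from 1.53 to 3.30; Plin2 takes the largest share in every library.

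Counted over the 9 tested genes, sustained hypoxia lowered 1, Plin2, and raised none, where 0.0481% of all genes tested passed (0.0275% lower). The median log2 change of the 9 genes was −0.32, against −0.01 for all genes. Without sustained replicate 2 none of the 9 was called by edgeR, and their median was −0.54. Without that library Plin5 stood at −1.03, G0s2 at −1.56, Plin4 at −0.86, Cidec at −0.54, Hilpda at −0.26, Plin3 at −0.02, Cideb at 0.19 and Pnpla2 at 0.29. Intermittent hypoxia lowered 6 (Plin2, Plin3, Plin5, Cidec, G0s2 and Hilpda) and raised 1 (Pnpla2), where 37.1% of all genes passed, 18.3% lower and 18.9% higher. The median of the 9 was −0.83, against 0.03 for all genes. In 5 of these 6, all but G0s2, intermittent and room air libraries did not overlap, which held for 35.4% of all genes, 18.0% lower. Overlap hypoxia lowered 1, Plin2, where 6.29% of all genes passed (2.89% lower), and the median of the 9 was −0.43, against 0.03.

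**Figure D3:**
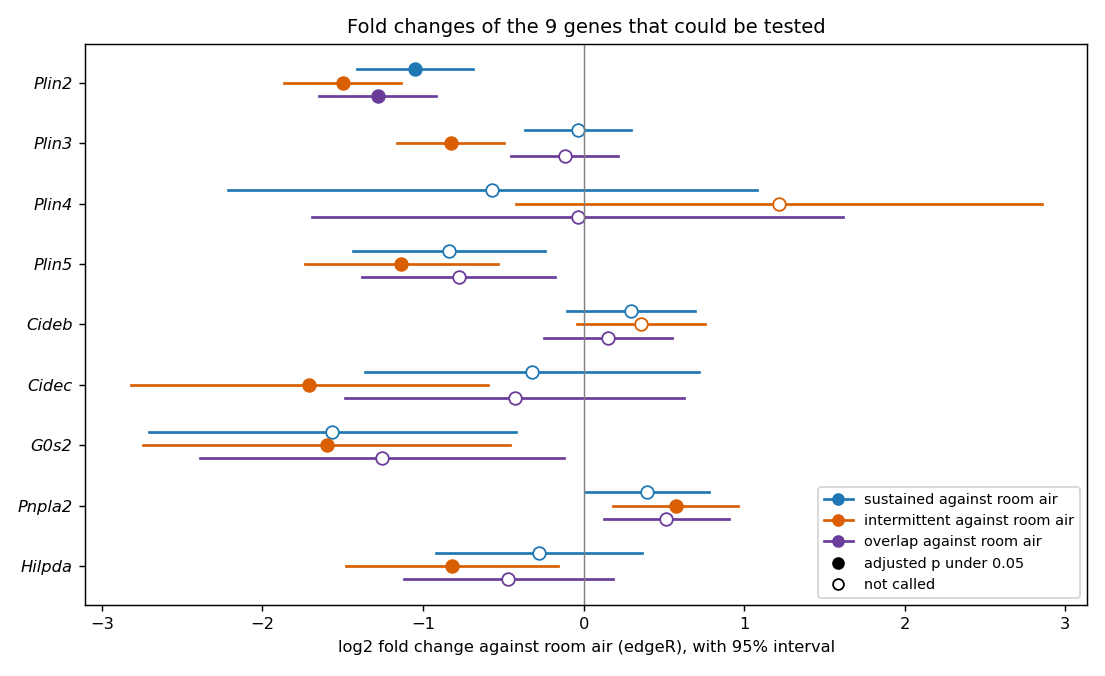
Log2 fold change against room air (horizontal axis) with its 95% interval for the 9 tested genes in each exposure, from edgeR fitted on all 16 libraries; filled points have an adjusted p under 0.05. Plin2 is filled in all 3 exposures, at −1.05, −1.50 and −1.28, and Pnpla2 is the one filled point above 0, at 0.57 in intermittent hypoxia.

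Between sustained and intermittent hypoxia 3 of the 9 genes differed, Plin2, Plin3 and Cidec, all higher in sustained, where 38.4% of all genes passed, 18.9% higher. The libraries of Plin2 and Plin3 did not overlap, as for 18.0% of all genes in that direction. Plin3 remained called whichever library was left out; Plin2 missed the threshold without room air replicate 3, any 1 sustained library, or intermittent replicate 2, 3 or 4 (edgeR adjusted p from 0.051 to 0.149), and Cidec without room air replicate 2, sustained replicate 1, 2 or 3, intermittent replicate 1, 2 or 4, or overlap replicate 4 (up to 0.114). No gene of the 9 differed between overlap and sustained hypoxia by edgeR, 0 also at an unadjusted p under 0.05 and 0 by DESeq2 or limma-voom, where 0.165% of all genes passed. In that comparison all 4 overlap libraries of Plin2 were below all 4 sustained libraries, which held for 5.58% of genes in that direction. For the departure from additivity 1 of the 9 passed, Plin2, against 0.454% of all genes (0.220% positive). G0s2 stood at 1.91 (95% interval 0.32 to 3.50), Cidec at 1.6 (0.08 to 3.13), Plin5 at 1.19 (0.35 to 2.04) and Plin3 at 0.74 (0.27 to 1.21), none of them called.

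Ribosomal RNA share moved with intermittent hypoxia: its libraries held 18.5% to 34.8% and room air libraries 1.57% to 10.2%, without overlap. The share of counts from mitochondrial genes also moved without overlap, from 1.18% to 2.75% in room air libraries to 6.23% to 11.7% in intermittent libraries; overlap libraries held 2.54% to 7.17%. With the ribosomal RNA share as a covariate in the fit, 0 of the 9 genes passed in intermittent hypoxia against room air, and 77 of all genes instead of 5404. Plin2 then stood at log2 −1.43 (SE 0.34, edgeR adjusted p = 0.0629), where the fit without the covariate gave −1.50 (SE 0.18). Plin3 stood at −0.56 (SE 0.30, adjusted p = 0.350), Plin5 at −0.78 (0.56, 0.500) and Cidec at −0.96 (1.03, 0.675). G0s2 stood at −0.94 (0.98, 0.668), Hilpda at −0.62 (0.61, 0.636) and Pnpla2 at 1.17 (0.34, 0.107). Each SE was larger than without the covariate. As the share did not overlap between these groups, ribosomal RNA share and intermittent exposure cannot be told apart here. Plin2 remained called in sustained (log2 −1.06, adjusted p = 0.0429) and overlap hypoxia (log2 −1.27, adjusted p = 0.00426) in the same fit. Its departure from additivity was 1.23 (adjusted p = 0.161).

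**Figure D4:**
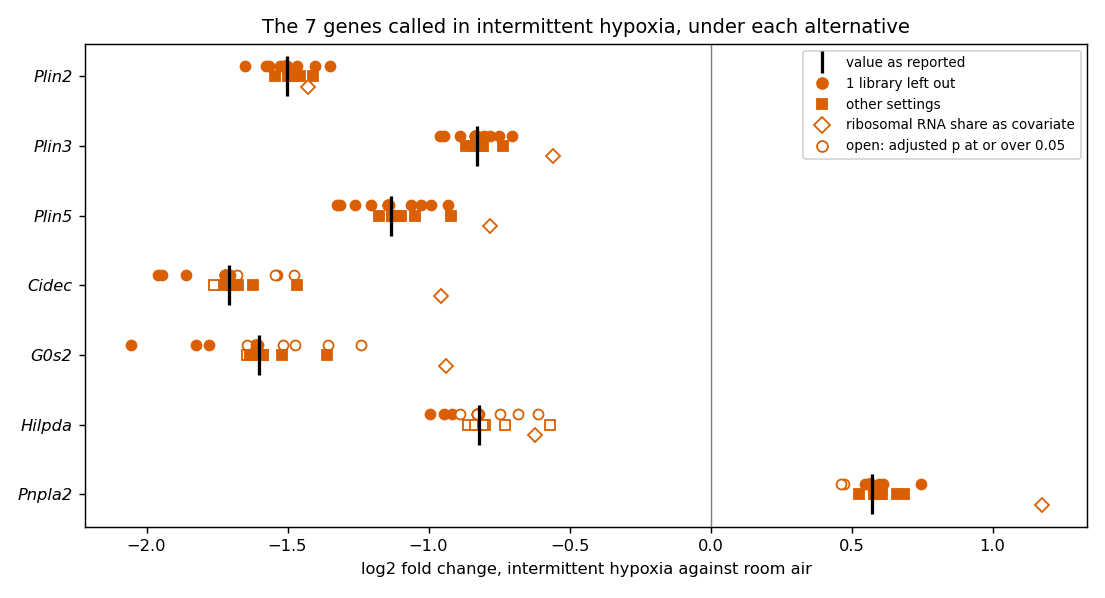
Log2 fold change of the 7 called genes in intermittent hypoxia against room air (horizontal axis), as reported (vertical tick) and under every alternative; round points leave out 1 library, squares are other settings, diamonds have the ribosomal RNA share as covariate, and open symbols have an adjusted p of 0.05 or more. The diamond is open for each of the 7 genes, and for Hilpda 18 symbols are open.

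Markers of other liver cells moved as well. Of 8 Kupffer cell markers, 7 were lower in intermittent hypoxia (18.3% of all genes tested) and 7 in overlap hypoxia (2.89%). In sustained hypoxia 0 were called by edgeR, with 7 at an unadjusted p under 0.05 and a median of log2 −0.78. Their summed level ran from 89.9 to 167 CPM in room air, 62.9 to 112 in sustained, 33.1 to 66.6 in intermittent and 37.8 to 43.0 in overlap hypoxia. Of 6 sinusoidal endothelial markers 3 were lower in overlap hypoxia, beside 2.89% of all genes. Their sum there was 41.0 to 72.8 CPM, below the 84.3 to 107.5 CPM of room air. It was 67.0 to 92.4 CPM in sustained and 96.4 to 107.6 CPM in intermittent hypoxia. In intermittent hypoxia 2 of the 6 were higher and 1 lower, beside 18.9% and 18.3% of all genes. Hepatocyte markers were lower in intermittent hypoxia in 4 of 6 cases, beside 18.3% of all genes. The part of cell make-up in the droplet gene results was not tested.

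The rest of the droplet and lipolysis machinery gives the setting. In sustained hypoxia none of 14 other lipase genes, 16 other droplet genes, 13 triglyceride synthesis genes, 18 PPAR factors and targets and 13 targets of hypoxia-inducible factors passed in edgeR; at an unadjusted p under 0.05 the counts were 2, 0, 4, 6 and 1. In intermittent hypoxia, where 18.3% of all genes fell and 18.9% rose, 6 of the 14 lipase genes fell and none rose, with a median of −0.22. Abhd5, the coactivator of ATGL, went from 31.9 ± 2.81 CPM in room air to 17.1 ± 1.05 (log2 −0.89, SE 0.17, edgeR adjusted p = 0.000407). Pnpla8, a phospholipase gene, stood at −0.95, Aadac, an ER lipid hydrolase gene, at −0.68 and the carboxylesterase gene Ces1f at −0.72, all called. Lipe, the hormone-sensitive lipase gene, did not pass (log2 0.01, edgeR adjusted p = 0.977). In overlap hypoxia 2 of the 14 fell, Pnpla8 (−0.55) and Ces1f (−0.53), beside 2.89% of all genes. Abhd5 was higher in overlap than in intermittent hypoxia (log2 0.71, edgeR adjusted p = 0.0231), beside 3.20% of all genes.

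Of 16 other droplet genes tested, 4 fell and 3 rose in intermittent hypoxia (median −0.06; 18.3% and 18.9% of all genes) and none passed in overlap hypoxia by edgeR (3 at an unadjusted p under 0.05). Hsd17b11 (−0.63) and Mettl7a1 (−0.57), droplet-surface enzymes, were lower, and Rnf213 (0.72) and Spg20 (0.75) were higher. Triglyceride synthesis genes rose in 3 of 13 cases and fell in 1 in intermittent hypoxia (median 0.06), close to the 18.9% higher and 18.3% lower of all genes: the acyltransferase gene Agpat1 at 1.62, the lipin gene Lpin2 at 0.97, Agpat3 at 0.54 and Agpat2 at −0.43. In overlap hypoxia 2 of the 13 rose, Agpat1 (1.05) and Agpat3 (0.50), beside 496 of all 14553 genes tested.

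PPAR factors and targets fell in 5 of 18 cases and rose in 2 in intermittent hypoxia (median −0.31), beside 18.3% lower and 18.9% higher of all genes. In overlap hypoxia 1 of 18 rose (median −0.26), beside 496 of all 14553 genes tested. Ehhadh (−0.79) and Angptl4 (−0.67, edgeR adjusted p = 0.00718) fell, and Cpt1a, the gate of mitochondrial fatty acid oxidation, rose (0.66 in intermittent, 0.52 in overlap hypoxia). The receptor gene Ppara did not pass in either (log2 −0.08 and −0.26). Of 13 targets of hypoxia-inducible factors 2 rose and 3 fell in intermittent hypoxia (median −0.34), again near the shares of all genes. Vegfa, the angiogenic growth factor gene, stood at 22.4 ± 4.48 CPM in room air and rose to 67.9 ± 8.81 CPM (3.03-fold, edgeR adjusted p = 6.34e-06), and the glycolysis genes Pgk1 (−1.21) and Ldha (−1.0) and the mitophagy gene Bnip3 (−0.72) fell. In overlap hypoxia Vegfa rose (0.88) and Pgk1 (−0.61) and Ldha (−0.74) fell, where 496 of all 14553 genes tested rose and 2.89% fell. The list counts were not computed with the ribosomal RNA share as a covariate.

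**Figure D5:**
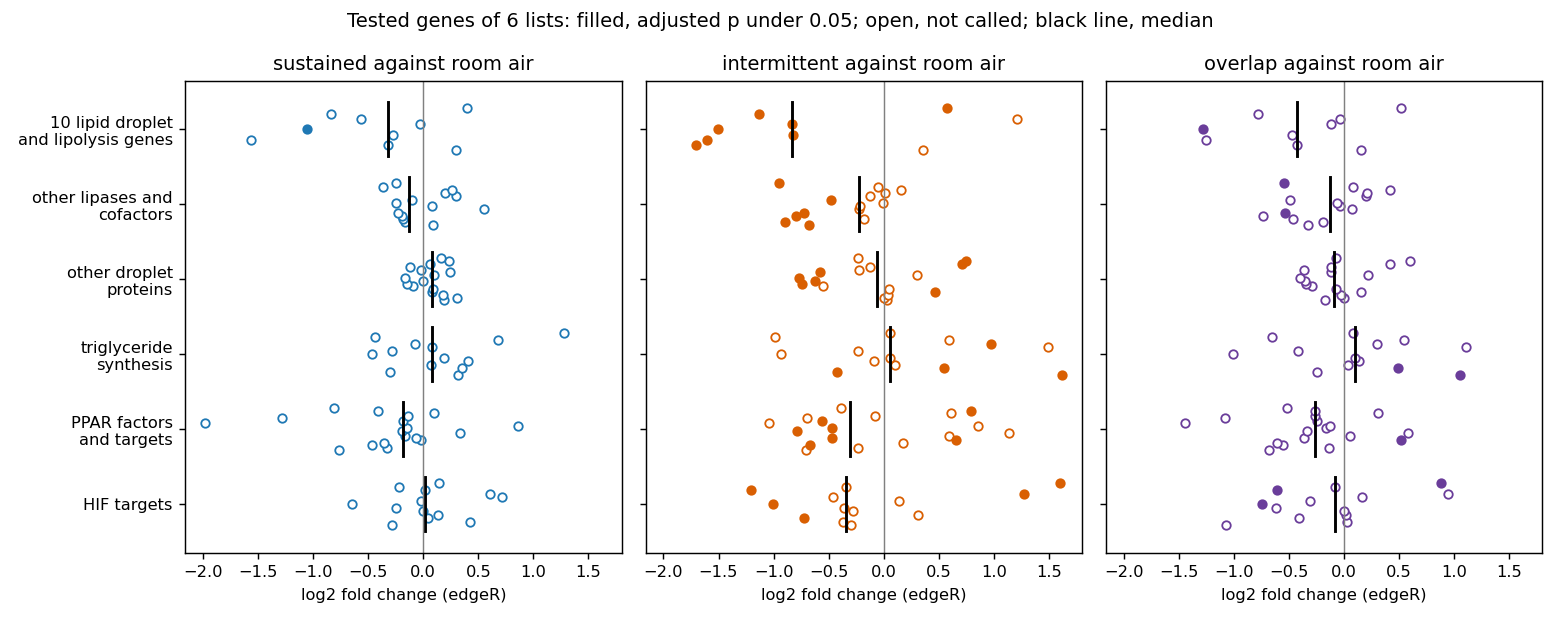
Log2 fold change against room air (horizontal axis, the same in all panels) of each tested gene among the 10 droplet genes and the 5 other lists, by exposure; filled points have an adjusted p under 0.05, and the black line is the list's median. In intermittent hypoxia the 9 genes have a median of −0.83 and the 14 other lipase genes one of −0.22.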

How the data were processed

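The authors deposited 1 table of expected counts per gene, which divide multi-mapping reads among genes by a statistical model. Bowtie 1.3.0, RSEM and GRCm38 are named per the submitters' processing notes; no source used here gives the strand setting or annotation release. Names, positions and exon lengths came from GENCODE M21, by Ensembl identifier, for 55227 of 55487 genes, and promoters from RefSeq.

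Expected counts were rounded to whole numbers, filtered with filterByExpr and scaled by TMM. All 16 libraries were fitted together with edgeR 4.0.16 (glmQLFit, robust; glmQLFTest), with 1 coefficient per group and Benjamini-Hochberg adjustment over 14553 genes for each of 7 comparisons. CPM uses TMM-scaled totals. Standard errors were derived from the quasi-likelihood test. The departure from additivity is the overlap change minus the sum of both single changes, each against room air, on the log2 scale. Alternatives were DESeq2 1.42.0, limma-voom 3.58.1, other scalings, no filter, fewer groups, covariates, a replicate block and leaving out each library; the fit was tested on simulated data. The labels do not say that replicates are separate mice, so p-values measure the spread between libraries.

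The genes and lists were chosen with earlier results of these data known. The text names all 10 genes; per other list and comparison, up to 4 genes by lowest p; the markers Plin1, Lipe, Abhd5, Adipoq, Lep, Ppara, Pparg, Angptl4, Vegfa and Lrat where needed; and the 5 genes most correlated with Plin2. Stellate cell markers, not described in the report, summed to 159 to 252 CPM in room air, 132 to 226 in sustained, 232 to 273 in intermittent and 97.7 to 229 in overlap hypoxia.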

Additional observations from a re-analysis of the deposited data

Results flagged for a closer look

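A check of the spread inside each of 40 sets of 4 libraries, 10 genes in 4 groups, marked a set where the gap between the most extreme library and its neighbour exceeded Dixon's 95% critical share of the whole range. Chance marks about 1 set in 20, and 6 were marked. In sustained hypoxia replicate 2 had the highest Plin2, 225.9 CPM, in a group otherwise between 206 and 209 CPM. In overlap hypoxia replicate 3, the shallowest library, had the lowest Plin2, 125.8 CPM, against 197 to 201 CPM in the others. Also in overlap hypoxia, replicate 4 had the highest Plin3, 35.3 CPM, and replicate 2 the one nonzero Cidea value, 0.438 CPM. In intermittent hypoxia replicate 3 had the highest Plin4, 9.83 CPM, and replicate 1 the lowest Pnpla2, 37.2 CPM.

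Plin2 was also marked because the effects of both single exposures did not add up in overlap hypoxia, with a departure of log2 1.27 by the interaction test.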

How the results depend on the processing

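Of 1629 single-gene values under the alternatives, 1503 kept their direction and side of the threshold, 82 lost a call, 6 gained one and 38 changed sign, none of them a called value. Counts of genes called among the 9 are given where they moved by over 1.5 times; smaller moves in intermittent hypoxia, from 7, were to 5 with only the groups compared (G0s2 and Hilpda lost) and to 6 with upper-quartile scaling, with DESeq2 size factors and without ribosomal RNA and mitochondrial genes (Hilpda lost), and in sustained against intermittent hypoxia, from 3, to 2 without the filter. With the ribosomal RNA share as covariate the count was 0 in intermittent hypoxia against room air, 0 in overlap and 0 in sustained against intermittent hypoxia, and 0 for the departure from additivity. Without the filter it was 4 in intermittent hypoxia. With upper-quartile scaling, and with offsets for gene length, it was 1 in sustained against intermittent hypoxia. DESeq2 called 2 in overlap hypoxia, adding Plin5 (log2 −0.78, adjusted p = 0.0402), and 2 for the departure. With only the groups compared it was 0 in overlap against intermittent hypoxia. Leaving out 1 library gave 0 to 1 in sustained, 3 to 7 in intermittent and 1 to 2 in overlap hypoxia against room air, 0 to 1 in overlap and 1 to 3 in sustained against intermittent hypoxia, 0 in overlap against sustained hypoxia, and 0 to 1 for the departure. The lowest count in intermittent hypoxia, 3, was without room air replicate 3. The cause was not tested.

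Whether replicate numbers pair the libraries was not settled. Of 24 same-numbered pairs 4 correlated above 0.1 in their deviations from group means (mean 0.021, against −0.007 for other pairs). Among libraries of other groups, 8 of 16 libraries correlated best with one of their own number. With a replicate block the counts among the 9 were 7 in intermittent (with Cideb, adjusted p = 0.0434, and without Hilpda, 0.0579), 1 in sustained and 1 in overlap hypoxia against room air and 2 in sustained against intermittent hypoxia, and over all genes 21 instead of 7 in sustained hypoxia and 290 instead of 66 for the departure. Plin5 in overlap against sustained hypoxia changed sign with the block, at log2 −0.0037.

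Other sign changes were of uncalled values. In overlap against sustained hypoxia Plin3 stood at 0.0275 and Cidec at 0.10 with the ribosomal covariate, and Cideb at 0.0514 and Cidec at 0.0193 with length offsets. Against intermittent hypoxia, G0s2 stood at −0.14 in overlap hypoxia and −0.69 in sustained hypoxia with the ribosomal covariate, and in sustained hypoxia at −0.0412 with upper-quartile scaling and −0.28 with length offsets. With the ribosomal covariate Plin5 (−0.10) and Cideb (0.0384) changed sign in sustained against intermittent hypoxia, and Plin4 in overlap hypoxia with upper-quartile scaling (0.0155). Leaving out 1 library gave, against room air, Plin3 −0.14 to 0.0484 in sustained and Plin4 −0.79 to 0.28 in overlap hypoxia. In overlap against sustained hypoxia it gave Plin3 −0.17 to 0.0022, Plin4 −0.22 to 0.83, Plin5 −0.047 to 0.25, Cidec −0.77 to 0.13 and Pnpla2 −0.0368 to 0.23. It gave Pnpla2 −0.21 to 0.0687 in overlap against intermittent hypoxia. In sustained against intermittent hypoxia it gave Cideb −0.16 to 0.0434 and G0s2 −0.34 to 0.49. The departure of Plin4 ran from −1.41 to 0.086.

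Over all genes, 7 passed in sustained hypoxia, against 4 with the ribosomal covariate, 12 with limma-voom, 61 without the filter, 91 with only the groups compared and 175 with DESeq2. In overlap hypoxia 916 passed, 361 with the ribosomal covariate and 1466 with DESeq2, and the split of 496 higher and 420 lower was 576 and 309 with upper-quartile scaling. That scaling moved the median of all genes in intermittent hypoxia from log2 0.03 to 0.12. In overlap against intermittent hypoxia 895 passed (466 higher, 429 lower), 0 with only the groups compared, 4 with the ribosomal covariate, 1584 with DESeq2, and 312 higher and 457 lower with upper-quartile scaling. In sustained against intermittent hypoxia 5584 passed, and 1 with the ribosomal covariate. In overlap against sustained hypoxia 24 passed, with 0 to 896 under other settings, and for the departure 66, with 7 to 540. At these depths Plin4, Cidec, Hilpda and Cidea rest on low counts.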

Other observations

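Inside the groups, 2 of the droplet genes ran together. Over the 16 libraries, with each value taken as its deviation from the group mean of log2 CPM, Plin4 and Cidec had a Pearson r of 0.934 (permutation within groups, two-sided, p = 2e-05, adjusted over 36 pairs 0.00072) and a Spearman rho of 0.918 (adjusted p = 0.00072). Without sustained replicate 4 and overlap replicate 3, the libraries farthest from the median of Plin4, r was 0.929. No other pair of the 9 genes had an adjusted p under 0.14. G0s2 and Pnpla2, inhibitor and lipase, had an r of −0.006, and Plin2 and Plin5 one of −0.23. In the library with the most adipocyte RNA, sustained replicate 2, Plin4 was 1.89 CPM and Cidec 4.52 CPM, against 1.91 and 4.37 CPM in sustained replicate 1. The remaining sustained libraries were lower in both genes. The part of adipocyte RNA in this pair was not tested.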
